A study of Mus musculus with 8 samples.

Results

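The spermatid and sperm genes described here are 36 mouse genes chosen by name, all 36 of them measured, among 18193 genes on arrays of gonadal white adipose tissue. The list was selected on results of these same 8 arrays, on which such genes had been seen to differ between samples, so the levels below are a description and carry no test. Each gene was read from 1 probe set, the one with the highest mean over the 8 arrays. The mice had a Swiss background, were 10 weeks old and were kept untreated under normal conditions. Of the arrays, 4 hold wild type controls (numbered 1, 2, 3 and 4) and 4 hold aP2-Pex5 knockouts (6, 8, 9 and 10). The knockouts were made to lack working peroxisomes in fat, through loss of Pex5, the receptor that brings enzymes into the peroxisome. The aP2 promoter is that of the fat cell gene Fabp4, so the deletion is directed at cells that use this promoter and not at every cell of the depot. The labels state neither sex nor whether an array held 1 animal or a pool.

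Spermatids are the haploid cells that turn into sperm in the testis. During this change transition proteins and then protamines replace most histones and pack the DNA, while a flagellum with its sheaths and an acrosome are built. Many of the genes are driven in round spermatids by CREM, a factor that binds the cyclic AMP response element in their promoters, and their messages are stored for later translation. White fat is not known as a source of these transcripts. The gonadal depot of a male mouse lies against the epididymis, the duct in which sperm are stored.

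The promoters of the 4 genes of the transition protein and protamine families, and of the germ cell lactate dehydrogenase Ldhc, are shown because these 5 genes stood out most among the 36 on knockout 9. Each is the 250 bases before the start listed by RefSeq on GRCm38.p6, written 5′ to 3′ along the strand of the gene. Capitals mark a match, on either strand, to TGACNTCA (the response element with a free base in its middle), to its shorter form TGACG, or to TATAAA. Tnp1 lies at chr1:73015900-73016149 on the minus strand, Tnp2 at chr16:10788656-10788905 (minus), Prm1 at chr16:10796824-10797073 (minus), Prm2 at chr16:10792106-10792355 (minus) and Ldhc at chr7:46861013-46861262 (plus, the first of 2 listed starts).
Tnp1: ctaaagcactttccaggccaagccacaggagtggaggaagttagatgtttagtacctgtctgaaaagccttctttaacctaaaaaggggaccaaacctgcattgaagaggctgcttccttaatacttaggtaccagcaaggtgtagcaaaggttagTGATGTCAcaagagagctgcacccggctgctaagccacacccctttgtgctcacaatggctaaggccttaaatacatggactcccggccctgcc
Tnp2: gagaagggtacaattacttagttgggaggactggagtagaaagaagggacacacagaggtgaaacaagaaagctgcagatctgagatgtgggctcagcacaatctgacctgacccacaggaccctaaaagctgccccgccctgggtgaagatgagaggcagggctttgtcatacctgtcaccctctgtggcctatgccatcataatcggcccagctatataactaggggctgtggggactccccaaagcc
Prm1: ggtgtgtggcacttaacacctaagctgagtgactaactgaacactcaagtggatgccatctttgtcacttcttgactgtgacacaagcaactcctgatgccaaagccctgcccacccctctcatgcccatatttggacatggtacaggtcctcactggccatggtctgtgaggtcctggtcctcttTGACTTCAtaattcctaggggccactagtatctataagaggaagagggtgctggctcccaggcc
Prm2: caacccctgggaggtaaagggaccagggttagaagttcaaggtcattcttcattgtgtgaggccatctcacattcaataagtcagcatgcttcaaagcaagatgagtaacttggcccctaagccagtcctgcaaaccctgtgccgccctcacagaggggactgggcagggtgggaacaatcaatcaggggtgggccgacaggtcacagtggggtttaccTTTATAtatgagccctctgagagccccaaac
Ldhc: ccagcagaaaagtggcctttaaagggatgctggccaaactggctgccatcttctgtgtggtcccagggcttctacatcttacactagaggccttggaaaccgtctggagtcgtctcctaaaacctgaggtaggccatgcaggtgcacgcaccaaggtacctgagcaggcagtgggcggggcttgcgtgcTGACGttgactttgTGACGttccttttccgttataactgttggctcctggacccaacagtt

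In these windows Tnp1 holds TGATGTCA, Prm1 holds TGACTTCA, Ldhc holds TGACG at 2 places and Prm2 holds TTTATA, which is TATAAA on the other strand. None of the 4 motifs searched was found in the window of Tnp2. RefSeq promoters were at hand for 31 of the 36 genes and not for Odf1, Acr, Oaz3, Fabp9 and Insl6. The full element TGACGTCA was in 1 of the 31, Izumo1 (3.23%), and in 1.77% of 27025 genes with a promoter in the table. With a free base, TGACNTCA, it was in 11 of the 31 (35.5%), namely Akap4, Gapdhs, Gsg1, Hspa1l, Izumo1, Prm1, Ropn1, Spata3, Tnp1, Tssk1 and Tssk2, and in 8.55% of all genes (7.49% of all promoters). This looser form was chosen after the search with the full one was seen, and it covers the full one. The shorter TGACG was in 8 (25.8%, against 19.8% of all genes) and TATAAA in 5 (16.1%, against 14.3%). A match is a run of letters and not evidence of binding. In the order of protein-coding genes, Tnp2, Prm3, Prm2 and Prm1 follow each other on chromosome 16, as do Tssk1 and Tssk2.

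The samples were fat by their markers and carried Y-linked transcripts. The adipocyte genes Fabp4 and Adipoq, which encode the fatty acid binding protein of fat cells and adiponectin, read 14.74 to 14.81 and 14.43 to 14.63 on the log2 scale of the deposited values. The other 4 adipocyte genes varied more and were lowest on control 4, with Lep at 12.02 to 13.44, Lipe at 12.65 to 13.46, Pparg at 11.38 to 12.10 and Cidec at 13.28 to 13.79. Eif2s3y and Kdm5d, both Y-linked, read 10.12 to 10.54 and 8.13 to 8.48 over the 8 arrays. Xist, the RNA of the silenced X chromosome, read 5.55 to 6.20 on 7 arrays and 8.27 on control 1. Array medians lay between 6.45 and 6.52. In bulk tissue, fewer cells of a type and less RNA per cell cannot be told apart.

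Transcripts of spermatids stood out on control 3 and knockout 9, less and in fewer genes on control 4, and not, by the limit used here, on the other 5 arrays. To count this, the excess of a gene on an array is its value there minus its median over the 8 arrays, and 1 on the log2 scale is a doubling. On knockout 9, 16 of the 36 genes had an excess of 1 or more (44.4%), against 0.5% of all genes on that array. On control 3 there were 14 (38.9%), against 0.616%. On control 4 there were 3, Tnp1, Tnp2 and Prm1 (8.33%), against 0.28%. The count was 0 on controls 1 and 2 and on knockouts 6, 8 and 10. All 14 genes of control 3 were among the 16 of knockout 9, the further 2 being Hils1 and Hspa1l.

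The same arrays appear when each gene's arrays are ordered. Knockout 9 was the highest array for 26 of the 36 genes (72.2%, against 15.4% of all genes) and control 3 for 4 (11.1%, against 15.8%). Control 3 and knockout 9 were the 2 highest arrays for 25 genes (69.4%, against 7.88% of all genes), and in 12 of these control 4 came next. The lowest array was knockout 6 for 10 genes, knockouts 8 and 10 for 8 each and control 2 for 5. How often each array was lowest over all genes was not counted, so these counts have no share to stand beside. Each of the 2 groups thus holds 1 array on which these transcripts were high, and control also holds control 4. The log2 of the summed level of the 36 genes was 11.52, 11.35, 12.47 and 11.65 on controls 1 to 4, and 11.28, 11.36, 12.91 and 11.25 on knockouts 6, 8, 9 and 10.

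**Figure D1:**
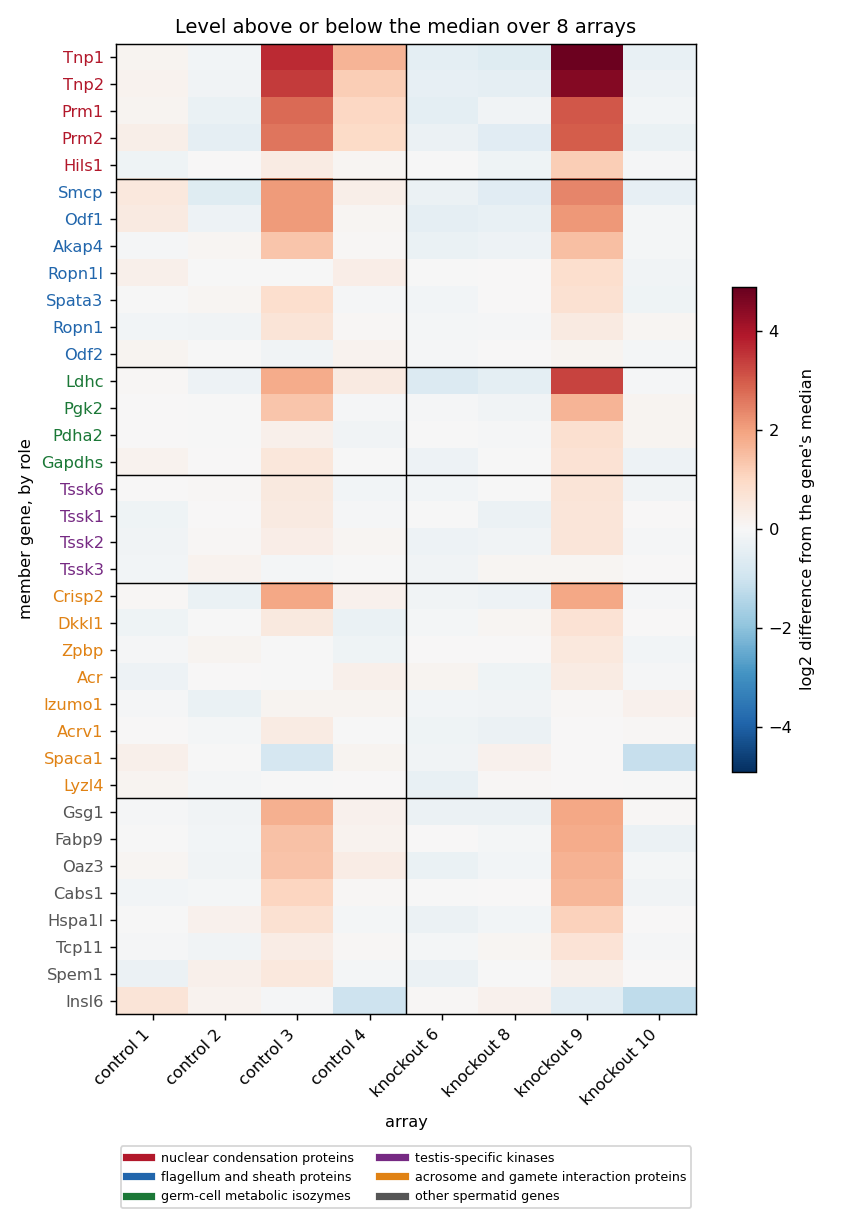
Log2 difference of each of the 36 genes (rows, coloured and grouped by role) from its own median over the 8 arrays (columns), red above and blue below. Control 3 and knockout 9 hold 14 and 16 genes at 1 or more, control 4 holds 3, and the other 5 arrays hold 0.

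Among the 5 genes of proteins that repack the spermatid nucleus, Tnp1 and Tnp2 had the widest ranges of the 36, 5.43 and 4.95, and Hils1 had a range of 1.42. Tnp1, transition protein 1 (probe set 1415924_at), read 5.44, 5.14, 8.96 and 6.94 on controls 1 to 4 and 4.82, 4.68, 10.11 and 4.94 on knockouts 6, 8, 9 and 10. Its partner Tnp2 (1422419_s_at) read 4.52, 4.21, 7.80 and 5.59 in control and 3.98, 3.91, 8.86 and 4.14 in knockout. For both, knockout 9 was highest, then control 3, then control 4, and the groups overlapped. The protamine Prm1 (1415955_x_at) read 7.48, 7.02, 10.12 and 8.37 in control and 6.86, 7.16, 10.38 and 7.22 in knockout. Prm2, the other protamine (1448105_at), read 6.85, 6.11, 9.18 and 7.50 in control and 6.29, 6.03, 9.55 and 6.25 in knockout. The order of the 3 high arrays was the same as for the transition proteins. In Affymetrix names, the endings s and x mark probe sets whose probes can also match other transcripts. Hils1, a linker histone of spermatids, read 5.11, 5.32, 5.73 and 5.40 in control and 5.30, 5.09, 6.51 and 5.25 in knockout. It was high on knockout 9, with an excess of 1.20 there and 0.41 on control 3.

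Over all 18193 genes ranked by excess, 4 of the 5 nuclear genes came near the top of both arrays, and Hils1 was rank 64 on knockout 9 and rank 825 on control 3. On knockout 9, Tnp1 was rank 1 (excess 4.82), Tnp2 rank 2 (4.49), Prm1 rank 7 (3.03) and Prm2 rank 8 (2.98). On control 3, Tnp1 was rank 2 (3.67), Tnp2 rank 4 (3.43), Prm1 rank 7 (2.76) and Prm2 rank 8 (2.61). On control 4 the excess was 1.65 for Tnp1, 1.22 for Tnp2, 1.02 for Prm1 and 0.93 for Prm2, which lay just under the count's limit. Prm3, the gene between Tnp2 and Prm2 and not on the list of 36, had an excess of 0.49 on control 3 and 0.27 on knockout 9.

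**Figure D2:**
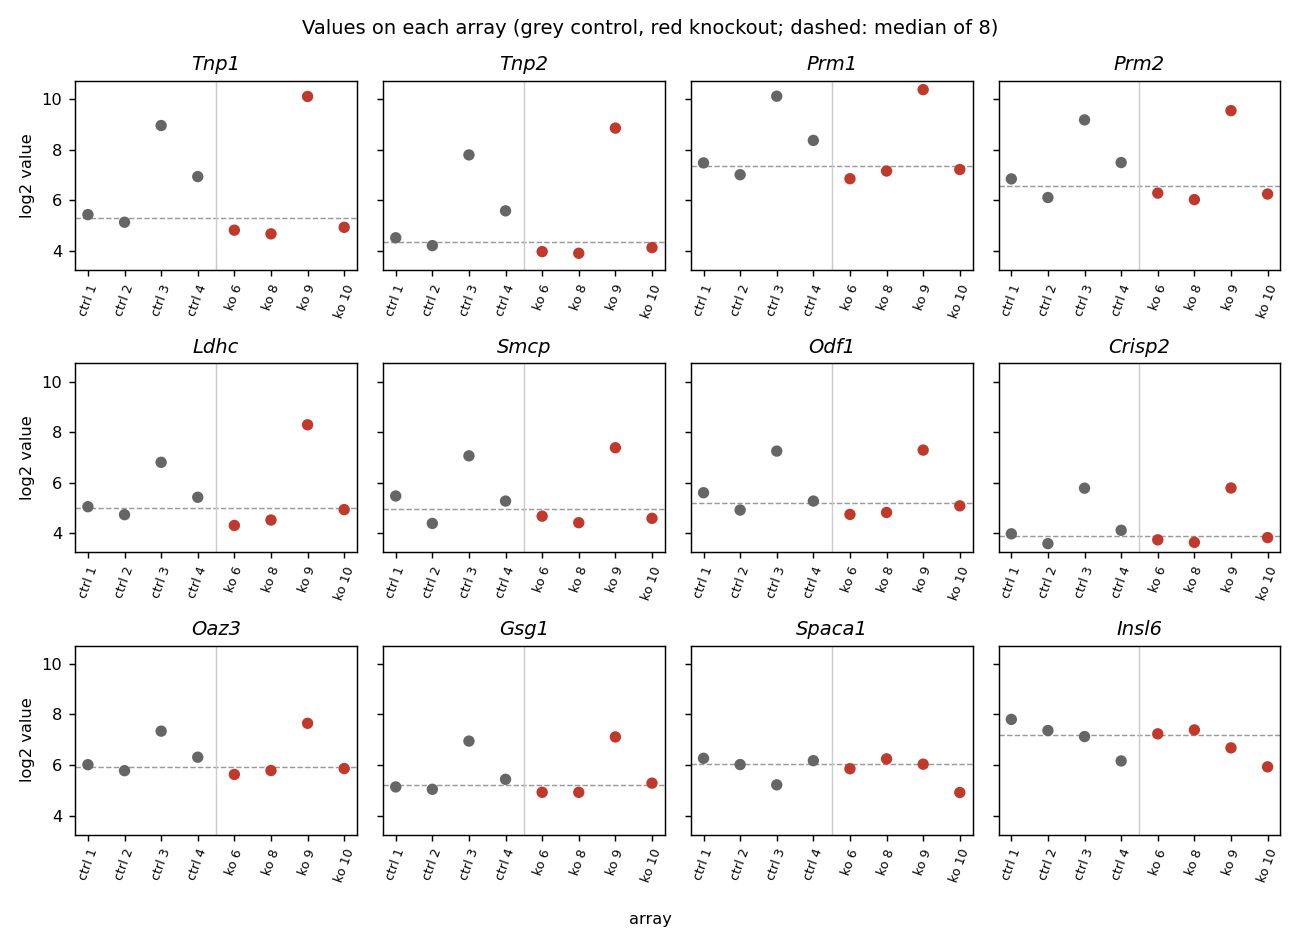
Deposited log2 value (vertical) on each array (horizontal; grey points control, red points knockout) of 12 of the 36 genes, with a dashed line at the median over the 8 arrays. Tnp1 reached 8.96 on control 3 and 10.11 on knockout 9, and read 4.68 to 5.44 on controls 1 and 2 and knockouts 6, 8 and 10.

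Of the 7 flagellum and sheath genes, 3 had an excess of 1 or more on control 3 and the same number on knockout 9. Smcp, a protein of the capsule around sperm mitochondria, read 5.48, 4.39, 7.06 and 5.28 in control and 4.68, 4.42, 7.38 and 4.59 in knockout. Odf1, of the outer dense fibres along the tail, read 5.61, 4.92, 7.25 and 5.28 in control and 4.75, 4.82, 7.29 and 5.09 in knockout. Akap4, the main scaffold of the fibrous sheath, read 5.19, 5.35, 6.62 and 5.33 in control and 4.95, 5.01, 6.74 and 5.16 in knockout. For these 3 genes control 3 and knockout 9 were high and lay 0.04 to 0.32 apart, while control 4 lay among the other arrays. Control 1 came next for Smcp and Odf1, with an excess of 0.50 and 0.42, against 0.30 and 0.09 on control 4. For Akap4 control 2 came next.

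The other flagellum genes spread less. Spata3 read 5.73, 5.84, 6.58 and 5.69 in control and 5.60, 5.75, 6.49 and 5.54 in knockout, with an excess of 0.84 on control 3. Ropn1l, which binds anchoring proteins in the tail, read 7.61, 7.37, 7.38 and 7.70 in control and 7.36, 7.38, 8.21 and 7.19 in knockout. Its high array was knockout 9 alone, whereas its relative Ropn1 was highest on control 3 at 7.08 with 6.87 on knockout 9. Odf2, which is also part of the centrosome of other cells, read 9.83, 9.67, 9.54 and 9.87 in control and 9.66, 9.74, 9.86 and 9.63 in knockout. On the probe set used, 1454735_at, no array stood out for Odf2, whose range was 0.33. Its other probe sets differed in their excess on control 3 and knockout 9. The excess was 0.53 and 0.53 on 1426040_a_at and 0.41 and 0.70 on 1435216_a_at. It was 0.04 and 0.22 on 1439918_at and -0.04 and -0.44 on 1444101_at.

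Among the 4 metabolic isozymes that replace somatic enzymes in germ cells, Ldhc and Pgk2 stood out on both arrays. Ldhc, the lactate dehydrogenase of spermatocytes and sperm (1415847_at), read 5.05, 4.74, 6.81 and 5.43 in control and 4.31, 4.53, 8.29 and 4.94 in knockout. Pgk2, a phosphoglycerate kinase, read 3.71, 3.66, 5.06 and 3.63 in control and 3.62, 3.53, 5.37 and 3.82 in knockout. Knockout 9 was above control 3 by 1.48 for Ldhc, the widest such gap among the 14 genes high on both, and by 0.31 for Pgk2. Gapdhs, the sperm form of glyceraldehyde phosphate dehydrogenase, read 7.30, 7.15, 7.71 and 7.11 in control and 6.91, 7.14, 7.87 and 6.90 in knockout. Pdha2, a pyruvate dehydrogenase subunit, read 4.71 on knockout 9 and 3.75 to 4.16 elsewhere. Both of these were highest on knockout 9, with an excess under 1.

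Of the 8 acrosome and gamete interaction genes, 1 stood out, Crisp2, a cysteine-rich secretory protein of the acrosome and tail. It read 3.98, 3.59, 5.78 and 4.12 in control and 3.74, 3.64, 5.79 and 3.83 in knockout, so that control 3 and knockout 9 differed by 0.01. Dkkl1, an acrosomal protein, read 5.31, 5.48, 5.98 and 5.18 in control and 5.41, 5.61, 6.21 and 5.54 in knockout. Spaca1, of the acrosomal membrane, read 6.27, 6.02, 5.22 and 6.17 in control and 5.85, 6.24, 6.03 and 4.91 in knockout. Spaca1 went against the others, being lowest on knockout 10 and control 3. Acr, the protease acrosin, and Zpbp, a zona pellucida binding protein, were highest on knockout 9 at 6.05 and 5.53. Acrv1, an acrosomal vesicle protein, was highest on control 3 at 4.40. Izumo1, which binds the egg's receptor at fusion, and the lysozyme-like Lyzl4 had ranges of 0.53 and 0.51 and were highest on knockout 10 and control 1.

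The 4 testis-specific kinases had an excess under 1 on every array. Tssk1 read 6.51 on control 3 and 6.67 on knockout 9, and Tssk2 read 4.71 and 4.95, the 2 highest arrays for each. Tssk6 was likewise highest on knockout 9 (5.49) and control 3 (5.34). Tssk3, on the probe set used (1432397_at), had a range of 0.32 and was highest on control 2. Its other probe set, 1418557_s_at, was highest on knockout 9 (4.74) and next on control 3 (4.54). Tssk1 and Tssk2 are neighbouring relatives, and the table does not say how far their probes cross-react.

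Of the remaining 8 spermatid genes, 4 had an excess of 1 or more on control 3 and 5 on knockout 9. Gsg1, a germ cell membrane protein, read 5.14, 5.04, 6.95 and 5.44 in control and 4.92, 4.92, 7.11 and 5.28 in knockout. Fabp9, the lipid binding protein of the sperm head and the neighbour of Fabp4 on chromosome 3, read 5.19, 5.06, 6.63 and 5.36 in control and 5.20, 5.08, 7.02 and 4.93 in knockout. Oaz3, an ornithine decarboxylase antizyme of spermatids, read 6.01, 5.78, 7.34 and 6.31 in control and 5.63, 5.78, 7.65 and 5.86 in knockout. All 3 were high on control 3 and knockout 9. Control 4 came next for each, with an excess of 0.23 for Gsg1, 0.16 for Fabp9 and 0.37 for Oaz3. Cabs1, a calcium-binding protein of spermatids, read 4.00, 4.03, 5.20 and 4.19 in control and 4.10, 4.17, 5.75 and 3.95 in knockout. Hspa1l, an HSP70-like chaperone, read 4.17, 4.39, 4.95 and 4.11 in control and 3.90, 4.06, 5.33 and 4.24 in knockout. Cabs1 lay just inside the limit on control 3 with an excess of 1.07, and Hspa1l just outside it with 0.75 there and inside it on knockout 9 with 1.13.

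Insl6, an insulin-like peptide of male germ cells, did not share the pattern. It read 7.81, 7.37, 7.13 and 6.16 in control and 7.23, 7.39, 6.68 and 5.93 in knockout, lowest on knockout 10 and control 4. Tcp11 was highest on knockout 9 at 7.30 and Spem1, needed for shaping the spermatid, on control 3 at 6.53. Their ranges were 0.84 and 0.82.

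Most of the 36 genes lay low on the arrays. Only Odf2 and Prm1 had a mean above the median of all gene means, 7.58, and the other 34 lay below it. The 5 highest means over the 8 arrays were 9.72 for Odf2, 8.08 for Prm1, 7.52 for Ropn1l, 7.26 for Gapdhs and 7.22 for Prm2. Levels of different probe sets depend on how well each binds and do not order the genes by abundance. On knockout 9 itself, Prm1 (10.38), Tnp1 (10.11), Odf2 (9.86), Prm2 (9.55) and Tnp2 (8.86) had the highest values of the 36.

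Late spermatid genes were high on the same arrays, in proportions that were unequal on the probe sets used. A late set of 14 genes was used: the 5 nuclear genes with Akap4, Odf1, Smcp, Gapdhs, Oaz3, Spata3, Spem1, Cabs1 and Tssk6. Control 3 and knockout 9 were the 2 highest arrays for 13 of the 14. The set's median excess was 1.38 on control 3, 0.09 on control 4 and 1.66 on knockout 9, against 0.36, 0.06 and 0.59 for the 22 other genes of the list. Of the late set, 9 genes had an excess of 1 or more on control 3 and 10 on knockout 9, and of the 22 others 5 and 6. The late set was drawn up with earlier results of these data known and holds Tnp1, Tnp2, Prm1 and Prm2. Its higher excess is therefore a description and not evidence about late genes.

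The scaling was read on a linear scale. The excess was taken as the linear value minus the linear median and expressed as a percent of that on control 3, for the 14 genes with an excess of 1 or more there. On control 4 the percentages were close for the nuclear genes, at 18.3% for Tnp1, 17.7% for Prm1, 17.6% for Prm2 and 13.6% for Tnp2. Oaz3 gave 18.0% and Ldhc 13.9%. Smcp gave 7.09%, Gsg1 7.27%, Fabp9 6.94% and Crisp2 5.98%. The lowest were Cabs1 at 3.47%, Akap4 at 3.05%, Odf1 at 2.11% and Pgk2 at -2.16%, the last being below its median on control 4. The median of the 14 was 7.18%. With the mean of the 4 lowest arrays as the baseline, an alternative chosen after seeing the data, it was 13.3%, with a range of 1.02% to 23.3%, so the small share on control 4 depends on the baseline.

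On knockout 9 the 14 genes ranged from 101% to 351% of their excess on control 3, with a median of 137% (135% with the other baseline). Crisp2 (101%), Odf1 (104%), Akap4 (114%) and Gsg1 (117%) were near equal on both arrays. Prm1 gave 124%, Smcp 133%, Prm2 135% and Fabp9 151%. Cabs1 gave 187%, Tnp2 220%, Tnp1 232% and Ldhc 351%. The protamines and transition proteins, which lay within 13.6% to 18.3% on control 4, therefore parted on knockout 9. All 14 were higher on knockout 9 than on control 3, by 0.01 to 1.48 on the log2 scale (median 0.32), while the median over all genes was 0.04. No replicate of either array exists, so these gaps have no replicate check. RMA compresses low values, and its part in the unequal percentages was not tested. The percentages also rest on 1 probe set per gene. Oaz3's 1437010_a_at read 7.15, 5.16 and 7.14 on control 3, control 4 and knockout 9. Akap4's 1451662_x_at read 6.06, 4.92 and 6.06 on the same arrays. On neither was knockout 9 above control 3, while on others, such as 1419019_a_at of Akap4, it was. The part of the probe set in the unequal percentages was not tested either.

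**Figure D3:**
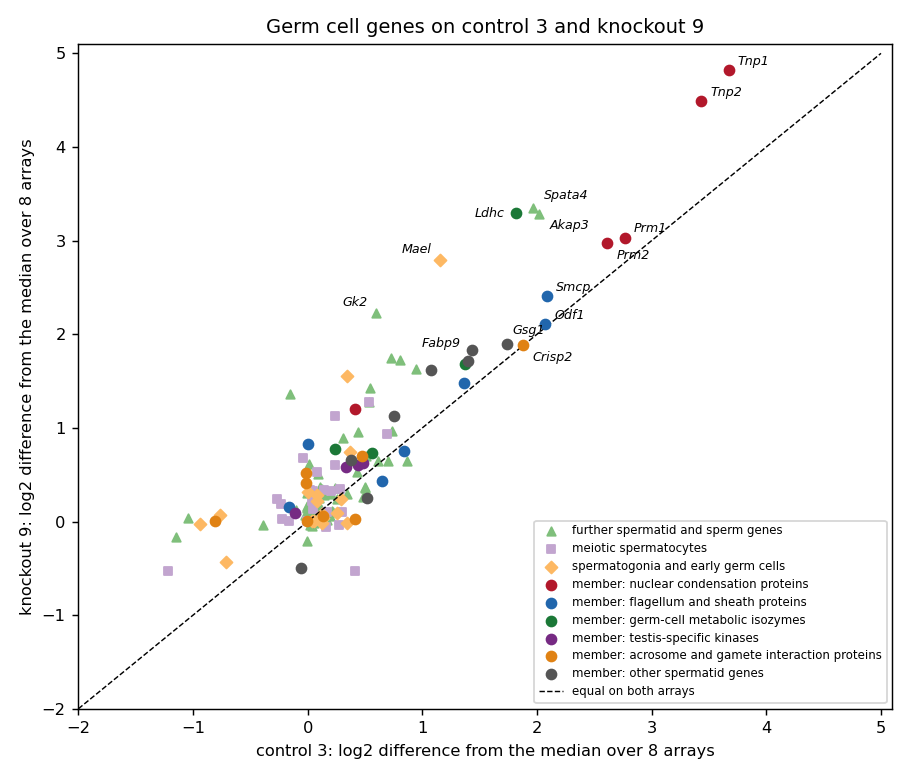
Log2 excess on control 3 (horizontal) against that on knockout 9 (vertical) for the 36 genes by role and for the other germ cell lists, with a dashed line of equality. Crisp2 and Odf1 lie at the line, and Tnp1, Tnp2, Ldhc, Akap3, Spata4, Mael and Gk2 lie above it.

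Other probe sets of the genes were read as a second measure of the same RNA. There were 23 in 12 genes, and 7 had an excess of 1 or more on both control 3 and knockout 9. Prm1 had a further 2, with an excess of 4.68 and 5.20 (1439379_x_at) and of 5.05 and 5.48 (1437054_x_at) on control 3 and knockout 9, against 2.76 and 3.03 for the one used, whose median is 7.35. On control 4 these 2 read 7.57 and 7.47. On controls 1 and 2, 1439379_x_at read 5.70 and 4.91 and 1437054_x_at read 5.32 and 4.45. Both were lower on knockouts 6, 8 and 10, at 3.47 to 4.03 and 3.78 to 4.11. How far Prm1 stood out on control 4 thus depends on the probe set. Ldhc's other probe set gave 2.44 and 3.72, and those of Akap4 gave 1.60 and 2.10, and 1.57 and 1.57. For Oaz3, 1437010_a_at gave 2.29 and 2.28 while its other 4 lay between -0.11 and 0.22. Probe sets disagreed for Tnp1, where 1438632_x_at gave 0.38 and 0.57, for Fabp9 (0.21 and 0.00), and for Odf1 (0.66 and 0.58, and 0.04 and 0.22). A probe set of Spata3 that was passed over, 1429923_x_at, gave 1.24 and 1.05.

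The wider germ cell lists gave lower shares. Of 57 further spermatid and sperm genes measured of 64 listed, 2 (3.51%) had an excess of 1 or more on control 3, against 0.616% of all genes. On knockout 9 there were 9 (15.8%), against 0.5%. Spata4 read 4.84, 4.69, 6.74 and 5.16 in control and 4.33, 4.57, 8.13 and 4.71 in knockout. Akap3, a fibrous sheath partner of Akap4, read 4.18, 3.96, 6.09 and 4.49 in control and 3.72, 3.74, 7.35 and 3.89 in knockout. These 2 genes followed the order knockout 9, control 3, control 4 seen for Tnp1. The other 7 on knockout 9 were Gk2 (excess 2.23), Spata19 (1.75), Adam5 (1.73), Adam3 (1.63), Tmco2 (1.43), Meig1 (1.36) and Adam2 (1.27), each with an excess under 1 on control 3. As many genes of this list, 2, lay 1 or more below their median on control 3, namely Tekt4 (-1.15) and Spa17 (-1.05). On knockout 9, 0 lay that low.

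Genes of earlier germ cells had an excess of 1 or more in few cases, mainly on knockout 9. Of 17 genes of spermatogonia and early germ cells, Mael and Ddx4 had an excess of 1 or more on knockout 9 and Mael also on control 3. Mael, which acts with the small RNAs that silence transposons, read 3.63, 3.57, 4.76 and 4.19 in control and 3.38, 3.53, 6.39 and 3.51 in knockout. Ddx4, a germ cell helicase, read 3.26 to 3.66 on 7 arrays and 4.87 on knockout 9. Other genes of this list went the other way. Gfra1 had an excess of -0.72 on control 3 and -0.43 on knockout 9. Kit had -0.94 and -0.03, and Zbtb16 had -0.76 and 0.07. Of 25 genes of meiotic spermatocytes, Adam2, which is also in the spermatid list, and Syce1 had an excess of 1.27 and 1.13 on knockout 9. On control 3, 0 genes of this list reached 1. Mybl1 had an excess of -1.22 on control 3 and -0.53 on knockout 9, and Sycp3 had 0.41 and -0.53. Knockout 9 was still the highest array for 13 of the 25 (52%). It was so for 6 of the 17 early genes (35.3%), against 15.4% of all genes. Knockout 9 minus control 3 was 1.64 for Mael, 1.63 for Gk2, 1.38 for Spata4, 1.26 for Akap3 and 1.21 for Ddx4.

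Markers of the supporting cells of the testis did not reach an excess of 1 on control 3 or knockout 9. Of 13 Sertoli cell genes and 6 Leydig cell genes, 0 had an excess of 1 or more on either array. The Leydig list had 9 genes, of which Insl3, Lhcgr and Hsd3b6 were not measured. Knockout 9 was the highest array for 4 of the 13 Sertoli genes (30.8%, against 15.4% of all genes), among them Aard (excess 0.70) and Gata4 (0.48). The log2 summed level of the Sertoli list was 10.60 to 10.77 in control and 10.69 to 10.85 in knockout, and that of the Leydig list 8.49 to 9.15 and 8.45 to 8.55. Cyp17a1, a steroid enzyme in the Leydig list, read 8.31 on control 1 and 6.24 to 6.41 elsewhere. Cldn11, a junction protein of Sertoli cells, was highest on control 4 at 7.47 and lowest on control 3 at 4.58. It and Sox9, a Sertoli cell transcription factor (6.75 on control 3), were the 2 Sertoli genes that lay 1 or more below their median on control 3. No deposited value is 0, so an undetected gene cannot be told from a low one.

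Genes of the male ducts and glands stood out on partly different arrays from the spermatid genes. Of 13 genes of the caput epididymis, 7 had an excess of 1 or more on knockout 8, 3 on control 1, 2 on knockout 10, 1 on knockout 9 and 0 on control 3. The log2 summed level of this list was 8.60 to 12.86 in control and 8.49 to 12.89 in knockout. Lcn8, a lipocalin of the caput, read 11.02 on knockout 8 and 4.39 to 4.75 elsewhere, Spink8 read 12.54 on control 1, and Cst12 read 10.66 on knockout 8 and 5.52 on knockout 9. Of 11 genes of the corpus and cauda, 5 stood out on control 1, 1 each on control 3 and knockouts 8 and 10, and 0 on knockout 9. The summed level of this second list was 10.11 to 12.86 in control and 10.16 to 10.86 in knockout. Eppin, a sperm-coating inhibitor, read 9.49 on control 1. On control 1 and knockout 8, where these duct genes were high, the median excess of the 36 spermatid genes was 0.01 and -0.15. There Tnp1 read 5.44 and 4.68, an excess of 0.15 and -0.61. Smcp had an excess of 0.50 and -0.56 on these 2 arrays, and Odf1 of 0.42 and -0.36.

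Part of the seminal vesicle and prostate list, by contrast, was high on control 3 and knockout 10. Of its 10 genes, 5 had an excess of 1 or more on control 3, 4 on knockout 10 and 0 on knockout 9. The log2 summed level was 7.75 to 9.80 in control and 7.70 to 8.77 in knockout. The 5 on control 3 were Svs2, Svs4, Svs5, Svs6 and Pate4. Svs3a and Spink1 had an excess of 0.73 and 0.80 there, and Tgm4, Msmb and Pbsn of -0.20, 0.16 and 0.12. Pate4 is also in the corpus and cauda list, where it is the 1 gene that stood out on control 3. Svs4, a seminal vesicle protein, read 7.89 on control 3, 7.01 on knockout 10 and 3.65 on knockout 9. On control 3, 18 of 25 motile cilia genes lay 1 or more below their median, and on control 2, where 0 of the 36 spermatid genes stood out, 10 did. Of all 18193 genes, 535 lay that low on control 3 and 281 on control 2. On control 3, Foxj1, the master factor of motile cilia, read 4.91 against 7.25 to 9.24 on the other arrays. This list's log2 summed level was 11.56 to 12.93 in control and 12.41 to 13.15 in knockout. Of 11 oocyte genes, Nlrp14 alone reached an excess of 1, on knockout 9 (5.16). Liver genes also varied between arrays: of 7, 7 had an excess of 1 or more on control 1 and 6 on knockout 6, while 6 lay 1 or more below their median on control 4 and 5 on knockout 9. Of all 18193 genes, 234 had such an excess on control 1 and 49 on knockout 6. Lying that low were 81 on control 4 and 39 on knockout 9. The liver genes had a median excess of 0.01 on control 3, and their log2 summed level was 9.54 to 14.54 in control and 9.46 to 12.66 in knockout. Alb, serum albumin, read 13.64 on control 1, 9.20 on control 3, 7.87 on control 4 and 8.06 on knockout 9. The part of these other tissues in the germ cell signal was not tested.

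**Figure D4:**
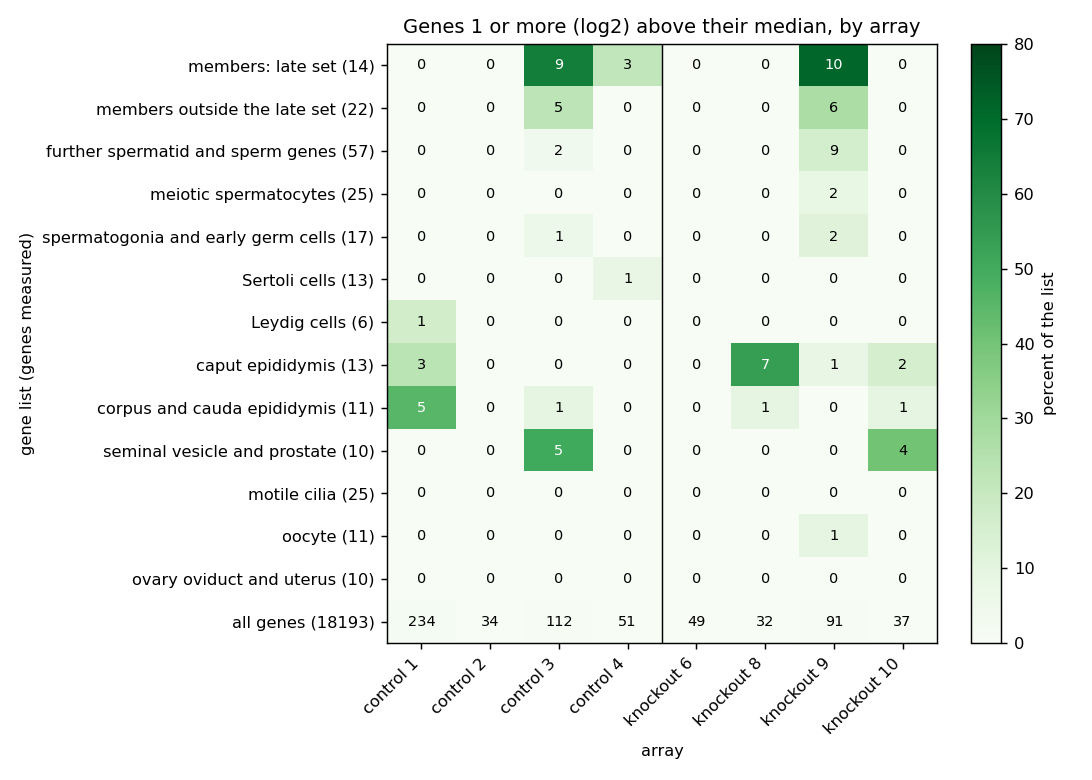
Number of genes with an excess of 1 or more (figures in the cells) in each gene list (rows, with the genes measured) on each array (columns), shaded by percent of the list. The late set has 9 genes on control 3, 3 on control 4 and 10 on knockout 9, while caput epididymis has 7 on knockout 8 and seminal vesicle and prostate 5 on control 3.

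Genes outside the list that stood out most on knockout 9 were in part of the same kind. By the rule used to name them, the 10 with the largest excess there were Rarres1 (3.76), Spata4 (3.35), Akap3 (3.28), Mael (2.79), Clec2m (2.71), Pdcl2 (2.56), Nxpe4 (2.39), Hmgb4 (2.37), Fhl4 (2.34) and Gk2 (2.23). Of these, Rarres1 and Nxpe4 were not high on control 3 (-0.60 and -0.12). Rarres1 also read 11.51 on control 1, against 11.52 on knockout 9, and Nxpe4 was highest on knockout 10 (7.02), against 6.99 on knockout 9. The other 8 had an excess of 0.60 to 2.02 on control 3. Over the whole table, 31 genes had an excess of 1 or more on both arrays, 14 of them in the list of 36 and 2, Akap3 and Spata4, among the further spermatid genes. The split of the 31 follows from how the list was made and is not evidence about it.

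None of the 36 genes passed the test between knockout and control. The comparison asks whether loss of fat cell peroxisomes goes with germ cell transcripts in this tissue. For Pex5 itself the mean was 9.38 ± 0.24 over controls and 9.36 ± 0.10 over knockouts (SD, n = 4 per group), which differ by -0.01 (95% interval -0.29 to 0.27, limma adjusted p = 0.9995). The labels do not say which exons were removed, so this probe set, 1426770_at, cannot check the genotypes. By limma with Benjamini-Hochberg adjustment over all genes, 0 of the 36 genes passed 0.05, and 0% of all 18193 did. At an unadjusted p under 0.05 there were 0 of the 36, against 2.56% of all genes (466). The groups overlapped in all 36, and did not overlap in 1.7% of all genes.

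The differences were small beside the spread of the arrays. For Tnp1 the mean was 6.62 ± 1.75 over controls and 6.14 ± 2.65 over knockouts (SD, n = 4 per group), which differ by -0.48 (95% interval -3.56 to 2.60). Prm1 averaged 8.25 ± 1.37 and 7.91 ± 1.66, differing by -0.34 (-2.43 to 1.75), and Ldhc differed by 0.01 (-2.01 to 2.03). The smallest unadjusted limma p-values were 0.216 for Acrv1, with a difference of -0.18 (-0.48 to 0.13), and 0.322 for Zpbp, with 0.15 (-0.18 to 0.48). The limma adjusted p was 0.9995 for 35 genes and 0.9997 for Fabp9. Of the 36, 13 were higher and 23 lower in knockout, with a median difference of -0.04 against -0.01 over all genes. Intervals this wide leave large differences in either direction undetected in the genes that stood out.

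**Figure D5:**
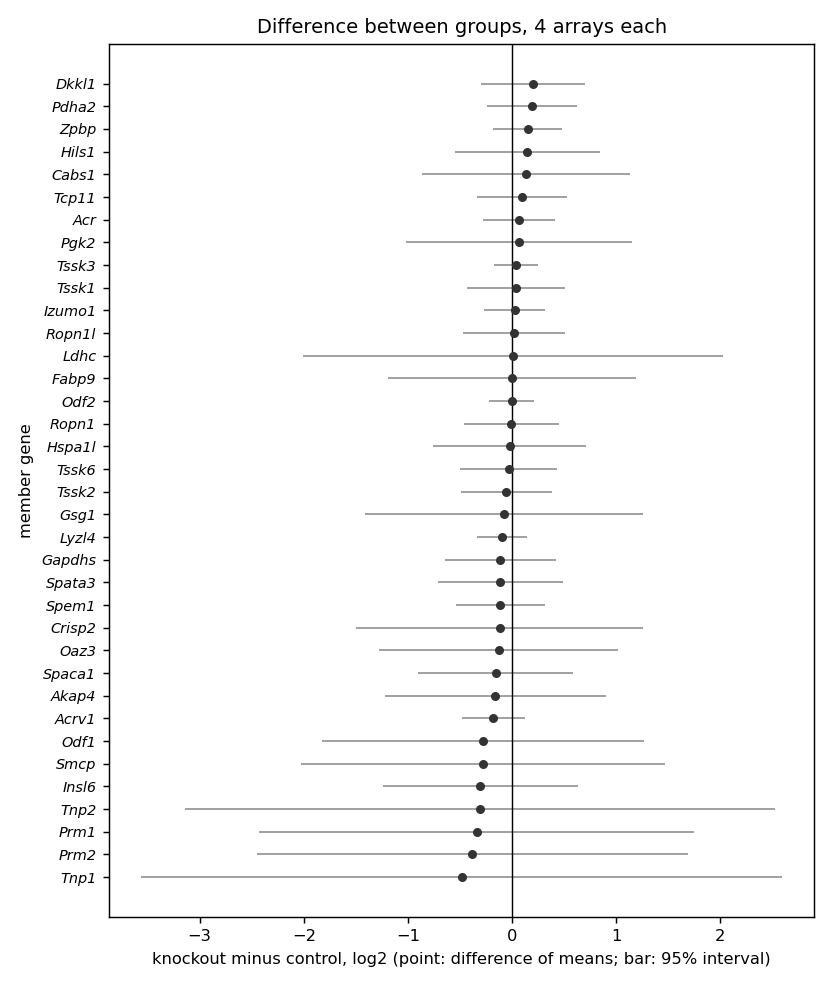
Knockout minus control difference of each of the 36 genes on the log2 scale, with its 95% interval from limma, 4 arrays a group. Every interval includes 0, and that of Tnp1 runs from -3.56 to 2.60.

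The direction of the whole list hung on single arrays. Without control 3 the median difference was 0.18, with 30 of 36 genes higher in knockout, and without knockout 9 it was -0.26, with 31 lower. It was also above 0 without knockout 6 (0.05), knockout 8 (0.03) or knockout 10 (0.02), and -0.09, -0.11 and -0.08 without controls 1, 2 and 4. Without control 3 and knockout 9 together, chosen after seeing the data, it was -0.13 with 30 genes lower. In that fit 0 genes passed limma's adjusted threshold. Of the 36, 1 had an unadjusted p under 0.05, Akap4 (difference -0.25), which is 2.78% against 3.29% of all genes.

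The arrays also fell into 2 sets of 4 by the lower quartile of their values. Controls 1 and 2 with knockouts 6 and 8 made up the first set, and controls 3 and 4 with knockouts 9 and 10 the second, which holds all 3 arrays on which spermatid genes stood out. Within the first set, 29 of the 36 were lower in knockout (median -0.12). There Tnp1, Tnp2, Ldhc and Akap4 had an unadjusted p under 0.05 (differences -0.54, -0.42, -0.48 and -0.29) and a limma adjusted p of 0.703. These 4 are 11.1% of the 36, against 7.02% of all genes in the same fit. Within the second set 18 were higher and 18 lower, with a median of -0.00476. Knockout 10, which is in the second set, had 0 of the 36 genes with an excess of 1 or more.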

How the data were processed

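RNA of gonadal fat was measured on 8 mouse expression arrays, 4 controls and 4 knockouts. The authors made log2 values per probe set with RMA (background correction, normalisation between arrays, 1 summary per probe set), per the submitters' processing notes; the sources used here do not give its version. Deposited values ran from 2.71 to 14.8 and hold no detection calls, and low values may be compressed. The table had 45101 probe sets, 64 of them controls. The platform annotation (2016) gave 1 symbol to 34945, several to 932 and none to 9160; 34741 matched a RefSeq gene of GRCm38.p6 by Entrez number, with 0 symbols changed. The probe set with the highest mean stood for each of 18193 genes; 12 of the 36 genes had more than 1.

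The 36 genes and all other lists were chosen with earlier results of these data known. Named were all 36 genes by role, with all 8 values where the range was 1 or more or the mean was among the 5 highest, the 10 other genes with the largest excess on the array highest for most of the 36, up to 3 genes of each other list by range, Pex5, and those with a small p in the comparison. Some genes of other lists outside this rule are named after their values were seen. Counts of genes standing out are descriptions with no test. The groups were compared by limma 3.58.1 under R 4.3.3 (lmFit, eBayes, no covariates), with p-values adjusted by Benjamini-Hochberg over all genes, threshold 0.05; the steps were tested on simulated data. Separate animals are not stated in the labels, so the p-values measure only how far these samples spread, which may be technical, and the number of arrays limits the precision. Alternatives were renormalisation, array weights, a variance trend, averaged probe sets, leaving out dim genes, the array set, other limits and baselines, and leaving out each array. Promoters came from a RefSeq table on GRCm38.p6.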

Additional observations from a re-analysis of the deposited data

Results flagged for a closer look

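Within a group of 4 arrays, the gap between an array and its nearest neighbour was set against the group's whole range, and the gaps that were too large by Dixon's 95% limit are given here. The 46 gene and group pairs examined are the 23 genes given with all 8 values, in each of 2 groups. Most of the 23 were taken because their range over these same arrays was 1 or more, from a list itself chosen on these values. The chance rate of about 1 in 20 groups therefore does not apply to them, and the 18 gaps, in 15 genes, describe the arrays and test nothing. In knockout the far array was knockout 9, as the highest, in each of 15 cases. The share of the range was 0.953 for Tnp1, 0.955 for Tnp2, 0.896 for Prm1, 0.927 for Prm2 and 0.849 for Hils1 among the nuclear genes. It was 0.913 for Smcp, 0.867 for Odf1 and 0.885 for Akap4 in the flagellum, 0.843 for Ldhc and 0.841 for Pgk2 among the isozymes, and 0.913 for Crisp2. The other genes were Gsg1 (0.834), Fabp9 (0.871), Oaz3 (0.885) and Cabs1 (0.877).

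In control the far array was control 3, as the highest, in 3 cases, with 0.945 for Pgk2, 0.848 for Cabs1 and 0.892 for Akap4. For Tnp1, Tnp2, Prm1 and Prm2, control 4 lay between control 3 and the other 2 controls.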

How the results depend on the processing

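With 1 probe set per gene and a limit of 0.5 in place of 1, 26 of the 36 genes stood out on knockout 9. With the same probe sets and a limit of 2, 7 did on knockout 9, 6 on control 3 and 0 on control 4. With dim genes left out, 2 of the 36 were left and knockout 9 was the highest array for 1. The other 93 alternative values of these counts, of the counts of genes passing limma and of the median difference of the 36 genes stayed within 1.5 times (counts) or within the spread (median). That median, which was not called, did change sign with single arrays left out, from -0.26 without knockout 9 to 0.18 without control 3. Of the single-gene values, 129 stayed within the spread and 23 moved, 12 of them with all probe sets of a gene averaged, under which Tnp1's excess on knockout 9 was 2.70 and Prm1's 4.61. Limma called 0 genes in every fit; at an unadjusted p under 0.05 the number over all genes was 1039 with array weights and 283 to 1566 with 1 array left out, the highest without control 4, against 466. No paired analysis was possible because the groups share no replicate numbers. The table gives no signal over background, so how far dim genes were measured is not known.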
